A study of Mus musculus with 6 samples.

Results

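The genes described here are 35 genes of glycolysis and of the response to low oxygen, read in the neocortex of mouse embryos with and without Bcl11a. They were chosen by name, as glycolytic enzymes, carriers and regulators and as genes that low oxygen is known to induce. Of the 35, 32 had a probe set of their own on the array, out of 19938 genes measured in all. Gapdh was left out because each of its probe sets is shared with other genes, and Gpi1 and Eno1 have no entry in the probe annotation used here. The study compared 3 control embryos, Bcl11a+/+, with 3 mutant embryos, Bcl11aΔflox/Δflox, which carried the deleted form of a floxed allele on both chromosomes. All 6 embryos were taken at embryonic day 14.5, and each neocortex gave 1 Affymetrix Mouse Gene 1.0 ST array. The driver of the deletion, the cells it reached and the strain are not stated in the labels. Levels are log2 values, in which 1 unit is a doubling, and differences are mutant minus control.

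Glycolysis splits glucose into pyruvate in the cytoplasm, and pyruvate is either reduced to lactate or burnt in mitochondria. When oxygen is scarce the hypoxia-inducible factors, or HIFs, escape hydroxylation and degradation and switch on glucose carriers, glycolytic enzymes, vessel growth factors and mitophagy genes. The embryonic cortex at this stage is a dividing tissue into which vessels are still growing, and its progenitors are known for high glycolysis. Bcl11a is a zinc finger repressor best known for silencing embryonic globin genes in red cells, and in the cortex it acts in projection neurons.

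The markers of the labelled tissue were the brightest of the marker lists. The 11 measured markers of neocortical neurons and progenitors had a mean level of 11.6 to 11.7 in every embryo. The 8 markers of choroid plexus, a neighbouring tissue, had one of 5.74 to 5.97. The 8 markers of the ganglionic eminence and interneurons lay between, at 8.29 to 8.60. Carry-over of tissue from there was not tested. Bcl11a read 12.20, 12.30 and 12.26 in controls and 11.41, 11.49 and 11.34 in mutants, a difference of -0.84 ± 0.06 (SE, limma adjusted p = 0.00201). Its probes may lie outside the deleted sequence, whose position the labels leave unstated, so this check is a weak one. Arrays correlated with each other at 0.995 to 0.998 across genes. In whole tissue, fewer cells of a type and less RNA per cell cannot be told apart.

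None of the 32 measured members passed the test, in either direction. The threshold was an adjusted p under 0.05 in limma, with p-values adjusted by the Benjamini-Hochberg method over all genes, and 0.286% of all genes passed it, 0.246% higher and 0.0401% lower in mutants. The lowest adjusted p of a member was 0.364, for the lactate carrier gene Slc16a3. The members' differences ran from -0.26 to 0.27, with a median of 0.02, the same as the median of 0.02 over all genes. Of the 32, 23 differed by less than 0.1 in size (71.9%, against 77.8% of all genes), and 18 were positive (56.2%, against 60.3%). At an unadjusted p under 0.05 there were 5 members, 2 higher and 3 lower, a share of 15.6% against 6.05% of all genes (4.53% higher and 1.52% lower). This difference in shares was not tested, and the members were chosen with earlier results of these data known. The control and mutant embryos did not overlap for 4 members, 1 higher and 3 lower (12.5%, against 10.5% of all genes, 7.69% higher and 2.85% lower).

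**Figure D1:**
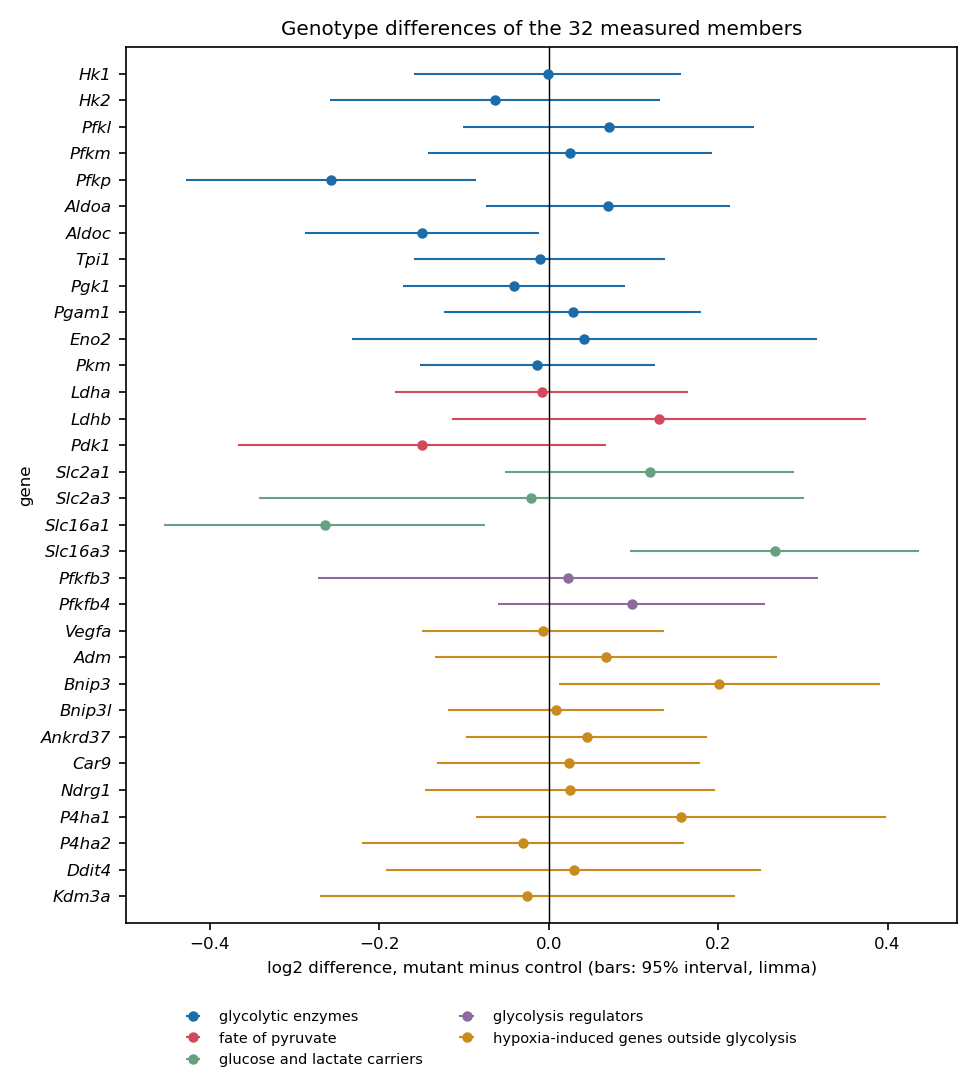
Log2 difference of mutant minus control for the 32 measured members, one row a gene, coloured by role. Points are limma estimates over 3 and 3 arrays and bars are 95% intervals, all of which lie between -0.45 and 0.44.

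The intervals set what these arrays could have shown. Over all 32 members the 95% limma intervals of the difference reached from -0.45 to 0.44, or from 0.73 to 1.35 as the ratio of mutant to control. A change of any member larger than that lay outside its own interval. The missed threshold alone does not show that the genotypes had equal levels.

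The 12 measured enzymes of the glycolytic chain covered every step but those of Gpi1 and Gapdh and had a median difference of -0.006. Hexokinases trap glucose as glucose 6-phosphate, and Hk2, the form most induced by low oxygen, read 8.60, 8.50 and 8.62 in controls and 8.53, 8.34 and 8.65 in mutants (difference -0.06 ± 0.09, SE). Its groups overlapped. Hk1, the form of most brain cells, differed by -0.0013 ± 0.07, but its probe set is doubtful.

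The Hk1 probe set used, which had the higher mean, is matched to 1 accession and to no RefSeq transcript. Its mean of 12.6 lay among those of 16 probe sets that the annotation shares between Hk1 and Rpl17, a ribosomal protein gene, which had means of 11.4 to 12.7 and differences of -0.05 to -0.02. A second Hk1 probe set is matched to 8 accessions, 2 of them RefSeq transcripts, and read 9.57, 9.67 and 9.86 in controls and 9.92, 9.91 and 9.94 in mutants. There every mutant lay above every control. The difference was 0.23 ± 0.08 (SE, 1.17-fold), with a limma adjusted p of 0.650 over all single-gene probe sets, so it did not pass. Across the embryos, the Hk1 probe set used correlated with the 16 shared probe sets at 0.80 to 0.95. The second Hk1 probe set correlated with them at -0.06 to 0.14. The part of Rpl17 in the signal of the probe set used was not tested. Whatever is said of Hk1 therefore turns on the probe set. The summaries of members and of glycolytic enzymes count the probe set used.

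Phosphofructokinase commits sugar to glycolysis, and 3 isoforms were measured, which were not tested against one another. Pfkp, the platelet form, which is also made in brain, read 8.224, 8.369 and 8.438 in controls and 8.113, 8.146 and 8.002 in mutants. All mutants lay below all controls. The difference was -0.26 ± 0.08 (SE, 1.19-fold lower; unadjusted p = 0.00815, limma adjusted p = 0.406). Pfkl, the liver form, differed by 0.07 ± 0.08 and Pfkm, the muscle form, by 0.03 ± 0.07, and the groups overlapped for both.

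Aldolases cut the 6-carbon sugar, and Aldoc is the isoform of the nervous system. It read 12.20, 12.26 and 12.24 in controls and 12.15, 12.07 and 12.03 in mutants. The groups did not overlap, although the gap between the nearest embryos was small. The difference was -0.15 ± 0.06 (SE; unadjusted p = 0.0366, limma adjusted p = 0.730). Aldoa, the widely made form, differed by 0.07 ± 0.06, with overlap.

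The later steps of the chain differed little between genotypes. Tpi1, triose phosphate isomerase, differed by -0.01 ± 0.06, and Pgk1, the first enzyme that makes ATP, by -0.04 ± 0.06. Both are bright, with means near 11.9. Pgam1, phosphoglycerate mutase, differed by 0.03 ± 0.07, and Pkm, pyruvate kinase, by -0.01 ± 0.06. Eno2, the enolase of neurons, read 8.64, 9.16 and 8.99 in controls and 9.04, 8.95 and 8.93 in mutants, so that the 3 mutants lay within the span of the controls. Its difference was 0.04 ± 0.12. The 25 shared probe sets that list Gapdh differed by -0.03 to -0.01 and overlapped in all cases, and since they hold other genes they are no measure of Gapdh alone.

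Of the 3 genes that set the fate of pyruvate, none stood apart. Ldha, the lactate dehydrogenase subunit that favours lactate, differed by -0.0084 ± 0.08. Ldhb, the subunit that favours pyruvate, read 10.83, 11.03 and 10.68 in controls and 11.11, 11.01 and 10.81 in mutants, a difference of 0.13 ± 0.11 with overlap. Pdk1, the kinase that shuts pyruvate dehydrogenase under low oxygen, read 8.71, 8.84 and 9.10 in controls and 8.75, 8.71 and 8.75 in mutants. Its difference of -0.15 ± 0.10 came from the high value of control replicate 3, and the other controls lay near the mutants.

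The largest differences in both directions belonged to the lactate carriers. Slc16a3 encodes MCT4, the carrier by which glycolytic cells release lactate and a gene induced by HIF. It read 8.39, 8.41 and 8.42 in controls and 8.80, 8.54 and 8.68 in mutants. All mutants lay above all controls, and the mutants varied more than the controls. The difference was 0.27 ± 0.07 (SE, 1.20-fold higher; unadjusted p = 0.0065, limma adjusted p = 0.364). Slc16a1 encodes MCT1, a carrier of lactate and ketone bodies in vessel and glial cells. It read 10.11, 10.22 and 10.41 in controls and 10.04, 9.94 and 9.97 in mutants, and all mutants lay below all controls. The difference was -0.26 ± 0.08 (SE, 1.20-fold lower; unadjusted p = 0.0118, limma adjusted p = 0.482). An exact two-sided permutation test of 3 against 3 embryos gave p = 0.1 for each of Slc16a3, Slc16a1, Pfkp and Aldoc. That is the smallest it can give. The lack of overlap fixes this value, so the test adds no support.

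**Figure D2:**
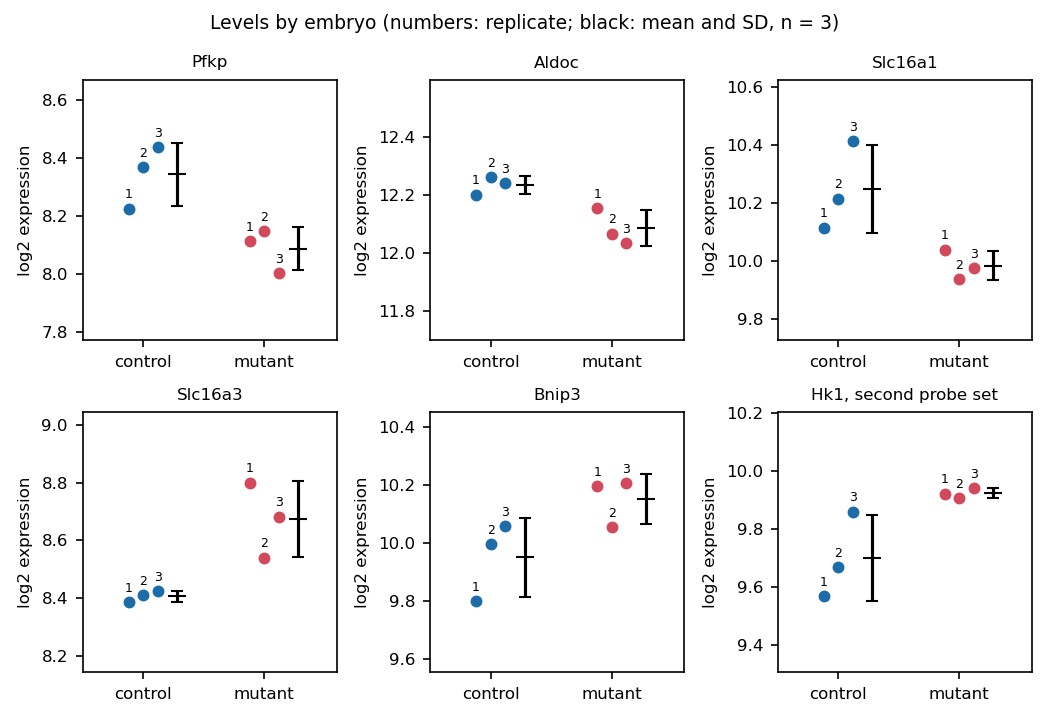
Log2 expression by embryo for the 5 members with an unadjusted p under 0.05 and for the second Hk1 probe set. Numbers are replicates, black marks are mean and SD (n = 3), and each panel spans 0.9 log2 units; mutants and controls are apart in every panel but that of Bnip3, where control replicate 3 and mutant replicate 2 are nearly equal.

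The glucose carriers differed less. Slc2a1, or GLUT1, which brings glucose across brain vessels, differed by 0.12 ± 0.07, with mutant replicate 1 the highest embryo at 11.81. Slc2a3, or GLUT3, the neuronal glucose carrier, differed by -0.02 ± 0.14, and its controls alone spread from 9.01 to 9.59. The regulators Pfkfb3 and Pfkfb4 make fructose 2,6-bisphosphate, which drives phosphofructokinase. Pfkfb3 read 9.10, 9.38 and 9.62 in controls and 9.29, 9.32 and 9.57 in mutants, a difference of 0.02 ± 0.13. Pfkfb4 read 8.23, 8.40 and 8.41 in controls and 8.46, 8.40 and 8.48 in mutants, a difference of 0.10 ± 0.07. The groups overlapped for both regulators.

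The 11 hypoxia-induced genes outside glycolysis had a median difference of 0.03, and 9 of them differed by less than 0.1. Bnip3, which tags mitochondria for removal, read 9.80, 10.00 and 10.06 in controls and 10.20, 10.05 and 10.21 in mutants. Mutant replicate 2 lay just below control replicate 3, and the other mutants lay above all controls. The difference was 0.20 ± 0.08 (SE; unadjusted p = 0.0393, limma adjusted p = 0.751; exact permutation p = 0.2), and it was 0.13 without control replicate 1. A second Bnip3 probe set, with a lower mean of 9.08, differed by 0.19 ± 0.09 and did not overlap between groups. Its relative Bnip3l, also a mitophagy receptor and needed for red cells to lose their mitochondria, differed by 0.0085 ± 0.06.

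P4ha1, a collagen prolyl hydroxylase, read 9.45, 9.45 and 9.79 in controls and 9.66, 9.64 and 9.86 in mutants. Control replicate 3 lay among the mutants, and the difference was 0.16 ± 0.11. P4ha2, the other hydroxylase subunit, differed by -0.03 ± 0.08. Vegfa, the main growth factor of vessels, differed by -0.0072 ± 0.06, between 9.61 and 9.74 in all 6 embryos. Adm, the vessel peptide adrenomedullin, differed by 0.07 ± 0.09, and Ddit4, an inhibitor of mTORC1, by 0.03 ± 0.10. Kdm3a, a histone demethylase, differed by -0.03 ± 0.11, and Ndrg1, a stress and differentiation gene, by 0.03 ± 0.08. Ankrd37, an ankyrin repeat gene, differed by 0.04 ± 0.06, and Car9, a surface carbonic anhydrase of hypoxic cells, by 0.02 ± 0.07. Adm, P4ha2, Ankrd37 and Car9 had means below 7.27, the median of all probe sets' means, where differences are compressed.

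HIF binds short motifs, and the promoters of the members were searched for ACGTG and GCGTG on both strands, with overlapping matches merged. The search window ran from 250 bases before to 50 after each start site of RefSeq, build GRCm38.p6. Of 43 promoters of 29 members with an entry, 33 held a match (76.7%), against 43.8% of all 32851 promoters of that length. Both motifs hold a CG pair, and the CG content of the 2 sets was not compared. Some windows of the same gene overlap, as for Aldoa and Pfkm, so a site can be counted more than once. Many members were also chosen as genes known to be induced by low oxygen, so the higher share is no independent result. The 27 members with a match in some promoter had a median difference of 0.02, and the remaining 2 members one of 0.02. Below are the promoters of both lactate carriers, which had the largest differences in opposite directions, of Bnip3, and of Egln3, a HIF target described further on. They are written 5′ to 3′ on the gene's strand, with the matches in capitals.
Slc16a3, chr11:120948817-120949116, plus strand: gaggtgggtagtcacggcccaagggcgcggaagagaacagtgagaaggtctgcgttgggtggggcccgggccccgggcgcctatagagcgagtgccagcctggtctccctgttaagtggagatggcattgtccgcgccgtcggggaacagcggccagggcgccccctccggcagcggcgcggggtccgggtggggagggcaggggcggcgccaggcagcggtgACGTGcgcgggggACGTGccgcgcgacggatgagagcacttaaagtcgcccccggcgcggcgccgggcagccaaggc
Slc16a1, chr3:104638414-104638713, plus strand: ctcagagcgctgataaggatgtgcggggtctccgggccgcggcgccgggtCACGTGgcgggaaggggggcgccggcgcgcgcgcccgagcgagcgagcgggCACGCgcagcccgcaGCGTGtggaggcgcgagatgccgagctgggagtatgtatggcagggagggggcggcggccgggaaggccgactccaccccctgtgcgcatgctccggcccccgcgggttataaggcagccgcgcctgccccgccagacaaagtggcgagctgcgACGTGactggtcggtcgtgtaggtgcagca
Bnip3, chr7:138909457-138909756, minus strand: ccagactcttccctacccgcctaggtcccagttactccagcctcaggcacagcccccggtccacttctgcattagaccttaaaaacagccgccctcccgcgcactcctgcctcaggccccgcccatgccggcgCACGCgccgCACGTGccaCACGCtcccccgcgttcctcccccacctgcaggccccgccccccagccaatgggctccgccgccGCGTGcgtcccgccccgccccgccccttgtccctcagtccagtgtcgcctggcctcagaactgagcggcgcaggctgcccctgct
Egln3, chr12:54203825-54204124, minus strand: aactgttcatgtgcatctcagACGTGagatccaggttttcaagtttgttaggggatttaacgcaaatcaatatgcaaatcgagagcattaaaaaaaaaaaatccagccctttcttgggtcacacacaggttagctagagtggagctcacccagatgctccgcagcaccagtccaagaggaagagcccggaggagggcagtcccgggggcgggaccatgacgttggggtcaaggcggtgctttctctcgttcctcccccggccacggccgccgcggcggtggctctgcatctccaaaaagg
The promoter of Slc16a3 held 2 matches, that of Slc16a1 4, that of Bnip3 4 and that of Egln3 1. Promoters with matches thus belonged to genes with positive and negative differences alike, and a match is no evidence of binding.

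Among the embryos of 1 genotype the members also varied. In 28 of the 32 members the span of the 3 controls was larger than the difference between genotypes (87.5%). That share was 86.3% over all genes, and a span of 3 single values is wider by nature than a difference of means, so it is no result about the members. The span reached 0.58 for Slc2a3, 0.52 for Eno2 and 0.52 for Pfkfb3, while Bnip3l spanned 0.06. The spread had a shape. Of the 28 members with a mean above 7.27, 22 had their lowest control in replicate 1 (78.6%, against 47.6% of all genes above that level), and none had its highest there (against 24.9%). The highest control was replicate 3 in 21 of the 28 (75%, against 48.1%). Of the 7 hypoxia-induced genes outside glycolysis above that level, 6 were highest in replicate 3 among the controls (85.7%, against 48.1% of all genes). Also 6 were highest in replicate 3 among the mutants (85.7%, against 37.45%). The shape was not particular to the members. Among the other lists, the share lowest in control replicate 1 ran from 0% of neocortical markers to 88.9% of other hypoxia-induced genes. It was 83.3% for ganglionic eminence markers, 75% for endothelial markers and 16.7% for pentose phosphate genes. Ganglionic eminence markers were highest in replicate 3 in 83.3% of cases among controls and likewise among mutants. These shares are descriptions, since genes that vary together are not independent.

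**Figure D3:**
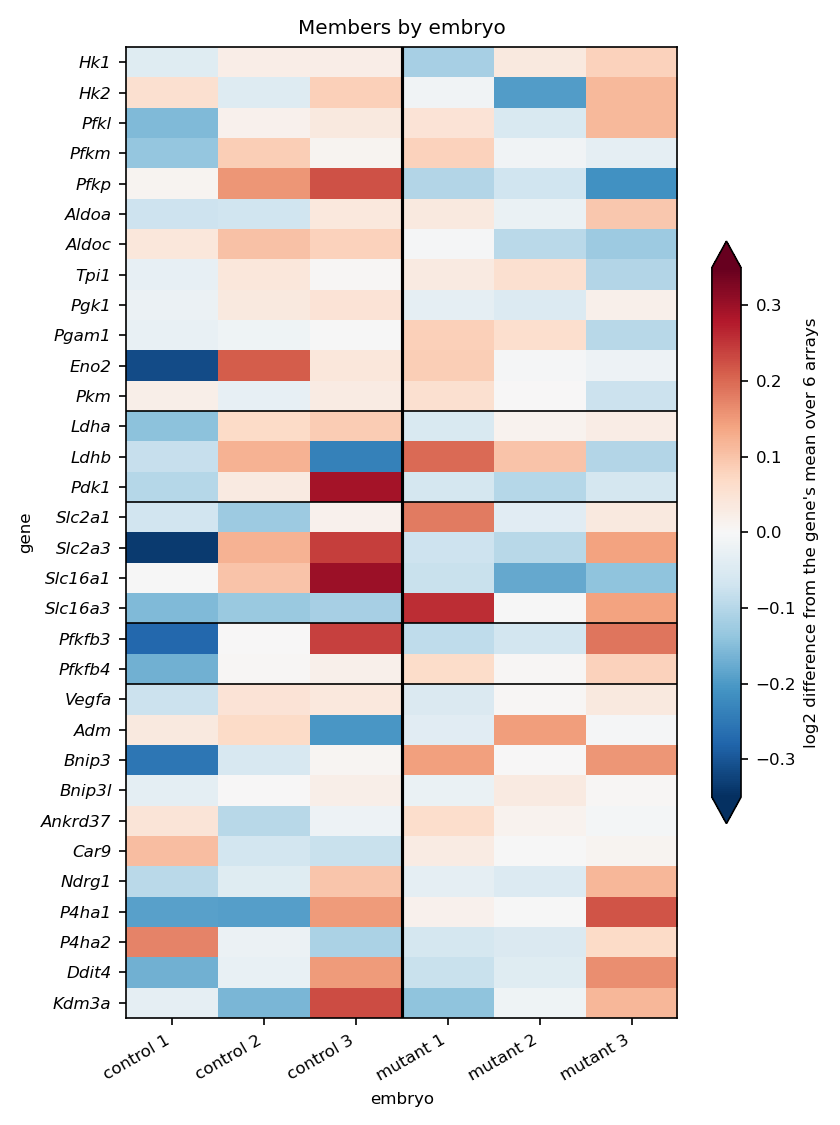
Each member's log2 level in each embryo as the difference from its mean over 6 arrays, red above and blue below; lines part the roles in the order of the text and the genotypes. Control replicate 1 is mostly blue and control replicate 3 mostly red, and no block of members changes colour between controls and mutants.

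The genes with the profile most like that of Slc16a3, by Pearson correlation over the 6 embryos, were Mir411 (0.995), Scnn1a (0.992), Selenbp2 (0.991), Dhrs3 (0.989) and Trmt11 (0.984). Among the members the most like it was Slc2a1 (0.865) and the least like it Pfkp (-0.757). These correlations are descriptions over 6 embryos of 2 genotypes, and the genes were picked as the highest of all measured.

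Among 69 measured genes of the same pathways outside the members, Egln3 and Hmox1 rose and Car12 fell, where 0.246% of all genes rose and 0.0401% fell. Of the 69, 51 had positive differences (73.9%, against 60.3% of all genes), and 42 differed by less than 0.1 in size (60.9%, against 77.8%). The groups did not overlap for 14 of them (20.3%, against 10.5%). These genes were listed with earlier results of these data known, so the calls and shares are descriptions and no test of the pathways. The positive share of all genes depends on the scaling, and was 47.0% after quantile normalization and 39.2% after median centring. Egln3 encodes PHD3, a prolyl hydroxylase of the family that marks HIF for degradation, and is itself a HIF target. It read 8.70, 8.98 and 9.16 in controls and 10.00, 9.84 and 9.83 in mutants. The gap between the groups was wider than the span within either, and the difference was 0.95 ± 0.11 (SE, 1.93-fold, limma adjusted p = 0.0136). The other 9 genes of its list did not pass. Hif3a differed by -0.20, Arnt2 by 0.12, Arnt by 0.10, Vhl by 0.09, Epas1 by 0.07, Hif1an by -0.06, Egln2 by 0.05, Hif1a by -0.03 and Egln1 by 0.01, and of these the groups were apart for Arnt. The Egln3 call was lost without control replicate 2 or any 1 mutant, and the highest adjusted p among those fits was 0.0952. It was also lost with the replicate number as a block (adjusted p = 0.0849) and with sex as a covariate (0.0606). The call thus held in 7 of 13 other fits. Sex, as read from Xist and Y-linked genes, was uneven between genotypes. The controls were 2 females and 1 male, and the mutants 1 female and 2 males.

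Hmox1, heme oxygenase, which breaks down heme and responds to heme and oxidants as well as to HIF, read 7.25, 7.65 and 7.40 in controls and 8.69, 8.60 and 8.57 in mutants. It rose by 1.19 ± 0.10 (SE, 2.28-fold, limma adjusted p = 0.00201). Car12, a membrane carbonic anhydrase like Car9, read 7.13, 7.26 and 7.27 in controls and 6.81, 6.80 and 6.80 in mutants. It fell by 0.42 on the log2 scale (SE 0.06, limma adjusted p = 0.0393), and of the 6 fits without 1 embryo it passed only in that without control replicate 1. The highest adjusted p of these fits was 0.2001, without control replicate 2. The call was also lost after quantile normalization (adjusted p = 0.0506), with the replicate number as a block (0.116) and with sex as a covariate (0.149), and held in 4 of 12 other fits. The mean level of Car12 was 7.01, below 7.27, so it was not in the fit without dim genes. Among the 26 other hypoxia-induced genes, 22 were positive (84.6%, against 60.3% of all genes) and the median was 0.07, against 0.02 over all genes. This list too was chosen with earlier results of these data known.

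**Figure D4:**
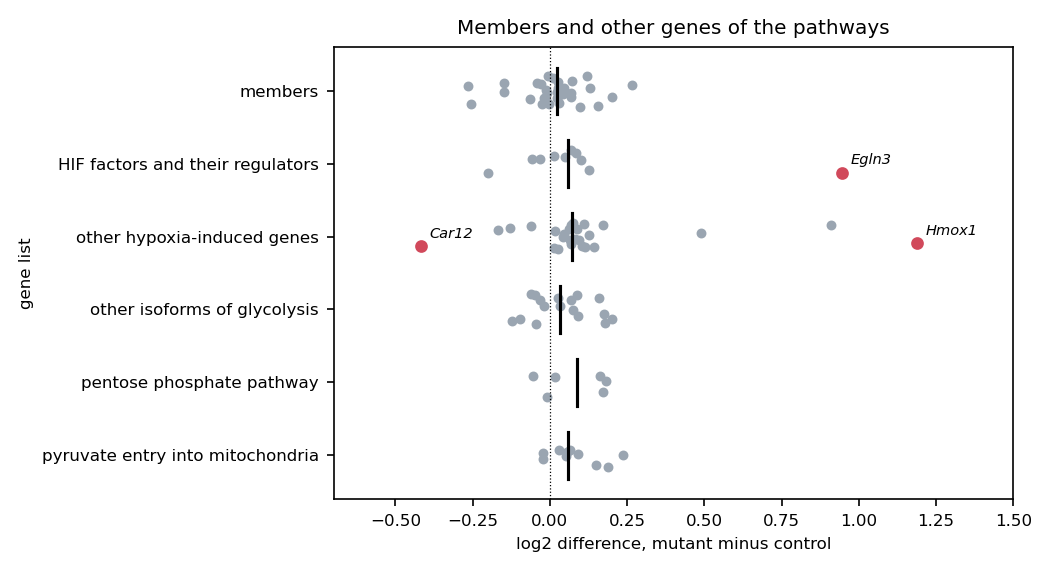
Log2 difference of mutant minus control for the members and for 5 lists of other pathway genes; each point is a gene, black bars are list medians, and red points passed the test. Members lie between -0.26 and 0.27, the red points are Egln3, Hmox1 and Car12, and the unnamed point at 0.91 is Lox, which did not pass.

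The branches around glycolysis held no gene that passed. Of 17 other isoforms of glycolysis 10 were positive, of 6 pentose phosphate genes 4, and of 10 genes of pyruvate entry into mitochondria 8. Pdp1 was the gene of these branches with an unadjusted p under 0.01, and Pgm1 was the remaining one among the other hypoxia-induced genes that missed the threshold. Pgm1, phosphoglucomutase, which links glycogen to glycolysis, read 8.30, 8.61 and 8.11 in controls and 8.94, 8.82 and 8.74 in mutants (difference 0.49 ± 0.12, SE, limma adjusted p = 0.240). Pdp1, the phosphatase that turns pyruvate dehydrogenase on, opposite in action to Pdk1, read 11.11, 11.14 and 11.18 in controls and 11.38, 11.36 and 11.39 in mutants (difference 0.24 ± 0.06, SE, limma adjusted p = 0.221). The groups did not overlap for either gene. Lox, a collagen cross-linking enzyme chosen here after its values were seen, read 5.49, 5.47 and 5.37 in controls and 7.66, 5.81 and 5.59 in mutants, so that mutant replicate 1 made most of its difference of 0.91 ± 0.45.

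Among the markers of other cells, those of red cells were the list with genes that passed. Of 13 measured markers of red cells, which live on glycolysis, 6 rose and none fell. Over all genes 0.246% rose and 0.0401% fell. The differences of the 13 ran from 0.07 to 5.02, with a median of 0.62. Their mean level was 7.35 to 7.44 in controls and 8.33 to 8.42 in mutants. The list was drawn up with earlier results of these data known. It holds embryonic globin genes, the kind that Bcl11a silences in red cells. The part of such genes in the mean level was not tested. The glycolytic enzymes of the same embryos had a mean level of 10.81 to 10.92 in controls and 10.84 to 10.88 in mutants. None of 11 markers of microglia and macrophages passed, and their mean level was 7.02 to 7.18 in controls and 7.26 to 7.48 in mutants. All 11 were positive (against 60.3% of all genes). For 5 of them the groups did not overlap (45.5%, against 10.5%), and 5 had an unadjusted limma p under 0.05 (45.5%, against 6.05%). None of 12 markers of pericytes and meninges passed, and their mean level of 8.36 in mutant replicate 1 stood above 7.36 to 7.62 in the other embryos. Of these 12, 11 were positive, and the groups did not overlap for 4 (33.3%). None of 12 endothelial markers passed, 11 were positive, and their mean level was also highest in mutant replicate 1, at 8.96. Slc16a3, Slc2a1, Egln3 and Hmox1 were highest in that embryo too. Among the mutants, replicate 1 was the highest for 45.9% of all genes above 7.27. Without that embryo Slc16a3 differed by 0.20, Egln3 by 0.89 and Hmox1 by 1.15. These log2 values have no zero, so no marker can be called absent. The part of these cells in the differences of Slc16a3, Bnip3, Egln3 and Hmox1 was not tested.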

How the data were processed

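RNA of 6 mouse neocortices was measured on 1 array each. Per the submitters' processing notes, the authors used Affymetrix Expression Console and RMA, which subtracts background, equalises array distributions and summarises probes. The deposited values were read as log2, since RMA gives log2 and they lay between 3.41 and 13.8, and array medians were 7.23 to 7.33. The study's own analysis used BRB-ArrayTools, per the series' design text. For software versions and the array's genome build, none is stated by the labels or headers. RMA compresses dim genes and hides a shift of all genes. Arrays have no read depth, and their number limits precision.

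Gene names came from the platform table that GEO holds, in which some may be outdated. Of 35556 probe sets, 21789 had 1 symbol, 1621 several and 12146 none listed, and 21698 were matched by Entrez number to RefSeq (GRCm38.p6). Per gene the probe set of highest mean was used, which left 19938 genes. The test was lmFit and eBayes in limma 3.58.1 (R 4.3.3), two-sided, 3 against 3 arrays, with no covariate, tested first on simulated data. Each sample had its own RNA isolation, per the design text, and arrays were treated as separate embryos. Intervals are 95% limma intervals.

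All members were named. Values by embryo were given for members with an unadjusted p under 0.05 and for the 2 largest differences of each role, with Hk2 and Eno2 and ranges of others chosen after their values were seen. Other pathway genes were named when past the threshold or at an unadjusted p under 0.01, and the rest of the HIF list and Lox after their values were seen. The members and lists were chosen with earlier results of these data known. Alternatives were other normalization, centring, a dim filter at 7.27, array weights, sex read from Xist and Y-linked genes, the replicate number as a block, and leaving out each array. In a further one all probe sets were fitted singly, and the one of lowest p was kept per gene.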

Additional observations from a re-analysis of the deposited data

Results flagged for a closer look

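Probe sets of the members that were not used for the comparison were read separately, since 7 members had more than 1. Of the 9 probe sets left unused, those in which every mutant lay above every control were the second Hk1 probe set, with a difference of 0.23, and the second Bnip3 probe set, with a difference of 0.19. Over all genes 7.69% had every mutant above every control. The 9 are not all separate readings. An unused Pgk1 probe set had the same values as the one used, and the unused Pgam1 probe sets had the same values as each other. Neither the second Hk1 nor the second Bnip3 probe set passed in the limma fit over all single-gene probe sets (adjusted p = 0.650 and 0.925). The groups overlapped in the probe sets of Hk1 and Bnip3 that were used.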

How the results depend on the processing

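No member passed in any of 13 other fits, where the lowest adjusted p was 0.0961, for Slc16a1 with array weights. At an unadjusted p under 0.05 there were 5 members (15.6%), 8 other pathway genes (11.6%) and 1207 of all genes (6.05%). Of 412 member values, 357 kept their direction and 55 turned it, in 18 members with differences of at most 0.07 in size. Slc16a3, Slc16a1, Pfkp, Aldoc and Bnip3 kept theirs throughout. The cause of the turns was not tested. Under quantile normalization Hk1 turned to 0.0092, Pfkm to -0.0025 and Pfkfb3 to -0.012. Median centring lowers every difference by the same amount and moved the median of all genes from 0.02 to -0.02, so the turns under it follow from values near 0. There 11 members were positive in place of 18 (39.2% of all genes in place of 60.3%), the glycolytic enzyme median was -0.044, and Pfkm turned to -0.013, Pgam1 to -0.010, Pfkfb3 to -0.015, Bnip3l to -0.030, Car9 to -0.015, Ndrg1 to -0.013 and Ddit4 to -0.0092. With all probe sets fitted singly and the one of lowest p kept per gene, Hk1 turned to 0.23. With array weights Hk1 turned to 0.0066, Pfkm to -0.048, Eno2 to -0.11, Pkm to 0.0065 and Kdm3a to 0.094. With sex as a covariate Hk1 turned to 0.0023, Pfkm to -0.0057, Eno2 to -0.022 and Kdm3a to 0.017. When 1 array was left out the values ran from -0.036 to 0.075 for Pfkm, -0.10 to 0.16 for Eno2, -0.11 to 0.15 for Pfkfb3, -0.0063 to 0.022 for Bnip3l, -0.026 to 0.080 for Ndrg1, -0.092 to 0.050 for P4ha2, -0.047 to 0.11 for Ddit4, -0.042 to 0.057 for Hk1, -0.041 to 0.037 for Tpi1, -0.083 to 0.034 for Ldha, -0.19 to 0.096 for Slc2a3, -0.047 to 0.016 for Vegfa, -0.010 to 0.084 for Car9, -0.017 to 0.12 for Adm, -0.11 to 0.083 for Kdm3a, -0.0060 to 0.085 for Pgam1, -0.14 to 0.019 for Hk2, -0.044 to 0.021 for Pkm. The number of genes past the threshold, 57, was 20 to 50 without 1 array (20 when control 2 or mutant 2 was dropped, 25 for mutant 1 and 33 for mutant 3), 217 with array weights, 24 with sex and 107 at an adjusted p under 0.1. Of the 3 other pathway genes past it, 1 to 3 passed without 1 array and 1 with sex. In the fit with a replicate block, 34 genes, 1 other pathway gene and no member passed. Same-numbered arrays deviated together with correlations of 0.03, -0.14 and 0.08 over all genes, which gives little sign of pairing. Of the controls, only replicate 3 correlated most with the mutant of its own number. Bcl11a and Hmox1 passed in all 13 fits.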
